A study of Mus musculus with 14 samples.

Results

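The digestive enzymes of the intestinal brush border were followed through mouse small intestine, adenomas, colon and a colon carcinoma cell line. The group was defined by name and not by its values, as *Sis*, *Lct*, *Treh*, *Anpep*, *Enpep*, *Dpp4*, *Mep1a*, *Mep1b*, *Alpi* and *Plb1*, that is, 10 of the 36282 gene names and 12 of the 55681 probes on the array. *Plb1* had 3 probes and each of the others had 1. RNA of 14 samples was hybridized to 1 one-color Agilent array each, and the samples formed 5 groups. Small intestine (3 arrays) came from different adult mice of the C57BL/6J strain. Adenomas (3 arrays) and tissue adjacent to adenoma (2 arrays) came from the APCmin/+ strain, mice in a C57BL/6J background that carry a truncating mutation of the tumor suppressor *Apc* and develop adenomas mainly in the small intestine. By the study's sample list, all of these 5 pieces were taken from 1 mouse, so the spread among them reflects variation within a single animal. The p-values and intervals that involve these 2 tissues therefore do not measure the spread between APCmin/+ mice. Against small intestine or colon, effects of tissue state, genotype and this animal cannot be told apart. Colon (3 arrays) is labelled C57BL/6J, although the sample list places 1 colon sample under an *Apc* Min/+ mouse and the methods name such mice as the source of normal colon. CT26 (3 arrays) is a mouse colon carcinoma cell line, kept in culture and without the other cells of a tissue. The labels do not say whether its arrays came from separate cultures, and if they did not, p-values measure only the spread between these arrays.

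Brush border enzymes sit in the microvillus membrane of the enterocyte, the absorptive cell of the intestinal epithelium, and carry out the last steps of digestion at the cell surface. They are made as cells leave the crypt and mature on the villus, which is why they are widely used as markers of enterocyte differentiation. Their amounts also change along the gut, and lactase is a known example of an enzyme of the proximal small intestine. Transcription factors of the CDX, GATA and HNF4 families are known regulators of enterocyte genes.

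Promoter sequences were examined because all members are enterocyte genes and the arrays also measured these factors. RefSeq promoters (GRCm38.p6) were found for 9 of the 10 genes, and the 250 bases before the start site were searched on both strands for 3 short motifs. The HNF4 motif CAAAGTCCA was present in the promoters of *Alpi* and *Treh*, and in 0.3835% of 32851 mouse promoters of the same length. The CDX motif TTTATG was present for *Sis*, *Lct* and *Plb1* and in 10.76% of all promoters, and the GATA motif AGATAA for *Lct* and *Dpp4* and in 9.988%. For *Plb1* the promoter at chr5:32238834-32239083 held the CDX motif and that at chr5:32353330-32353579 did not. The sequences of *Sis* (chr3:72967864-72968113, minus strand), *Lct* (chr1:128328319-128328568, minus strand), *Treh* (chr9:44672983-44673232, plus strand) and *Alpi* (chr1:87101607-87101856, minus strand) are shown, because they hold all the motifs found apart from single ones of *Dpp4* and *Plb1*, and because *Treh* and *Alpi*, which share a motif, differed in adenomas. Each is written in the direction of transcription and ends at the base before the start site, with the motifs in capitals as they read on the printed strand.
Sis: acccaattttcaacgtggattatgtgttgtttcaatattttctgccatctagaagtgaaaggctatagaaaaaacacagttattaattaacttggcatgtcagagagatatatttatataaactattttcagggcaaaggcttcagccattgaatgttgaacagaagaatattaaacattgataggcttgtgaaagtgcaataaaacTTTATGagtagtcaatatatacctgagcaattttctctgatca
Lct: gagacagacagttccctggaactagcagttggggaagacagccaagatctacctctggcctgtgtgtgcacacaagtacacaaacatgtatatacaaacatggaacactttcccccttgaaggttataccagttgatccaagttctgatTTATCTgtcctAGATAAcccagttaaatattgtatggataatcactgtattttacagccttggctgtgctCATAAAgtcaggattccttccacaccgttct
Treh: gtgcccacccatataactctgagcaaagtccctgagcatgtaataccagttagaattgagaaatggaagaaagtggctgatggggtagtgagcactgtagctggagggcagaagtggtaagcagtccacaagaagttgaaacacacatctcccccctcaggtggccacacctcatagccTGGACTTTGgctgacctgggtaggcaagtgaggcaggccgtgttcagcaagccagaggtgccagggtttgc
Alpi: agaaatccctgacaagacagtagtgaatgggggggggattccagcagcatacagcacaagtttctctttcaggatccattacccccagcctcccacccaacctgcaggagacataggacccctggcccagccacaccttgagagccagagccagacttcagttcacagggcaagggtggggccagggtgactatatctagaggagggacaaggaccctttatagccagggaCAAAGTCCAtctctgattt
In *Sis* the CDX motif lay 43 to 38 bases before the start site. *Lct* had GATA motifs 101 to 96 and 90 to 85 bases before its start and a CDX motif at 31 to 26 bases. The HNF4 motif lay 19 to 11 bases before the start of *Alpi* and 71 to 63 bases before that of *Treh*, on opposite strands. A match of this kind describes the letters only and shows no binding.

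All values below are the log2 of the background-subtracted signal relative to the 75th percentile of the array, so that 0 is the level of that percentile and a difference of 1 is a doubling of signal. Different probes are not compared with each other, since each binds its target with its own strength. Between 46.85% and 58.21% of the probes of an array lay well above background, and the number of arrays limits the precision. A gene was called when its log2 fold change (log2FC) was at least 1.2 in size and its adjusted p from limma was at most 0.01.

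One array stood apart from its label. Colon replicate 3 correlated at 0.96 to 0.966 with the small intestine arrays, whereas it correlated at 0.939 and 0.937 with the other colon arrays, which correlated with each other at 0.979 (Pearson's r over all probes). All 10 brush border enzymes had their highest colon value on it. The ileal bile acid binding protein *Fabp6* stood at 11.12 there, against 1.84 and 1.42 on colon replicates 1 and 2, and the ileal bile acid transporter *Slc10a2* at 6.91, against 2.58 and 2.86. The colonocyte carbonic anhydrase *Car1* was at -3.09, against 7.17 and 7.75, and *Hoxb13*, a gene of the distal gut, was not well above background at -5.79, against 7.22 and 5.61. Of the 10 colonocyte markers *B3galt5* was however at 4.62, against 5.003 and 5.49, and *Saa1* at 9.38, against 7.49 and 7.05. On replicate 3, 7 of the 10 were well above background, against 10 on each of the other colon arrays. The small intestine arrays had 8, 9 and 9, so this count does not tell colon from small intestine. The median of the list was 2.21 on replicate 3 and 5.30 on each of the others, while its summed signal, which on replicate 3 was mostly that of *Saa1*, was 9.64 and 9.30 to 9.39. The summed signal of 5 B cell markers was 5.43 on this array and 2.54 to 2.89 on the other colon arrays. Comparisons that involve colon are therefore given with and without it. Since the enzymes' own values are among those that set this array apart, the calls without it are not independent of that choice.

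**Figure D1:**
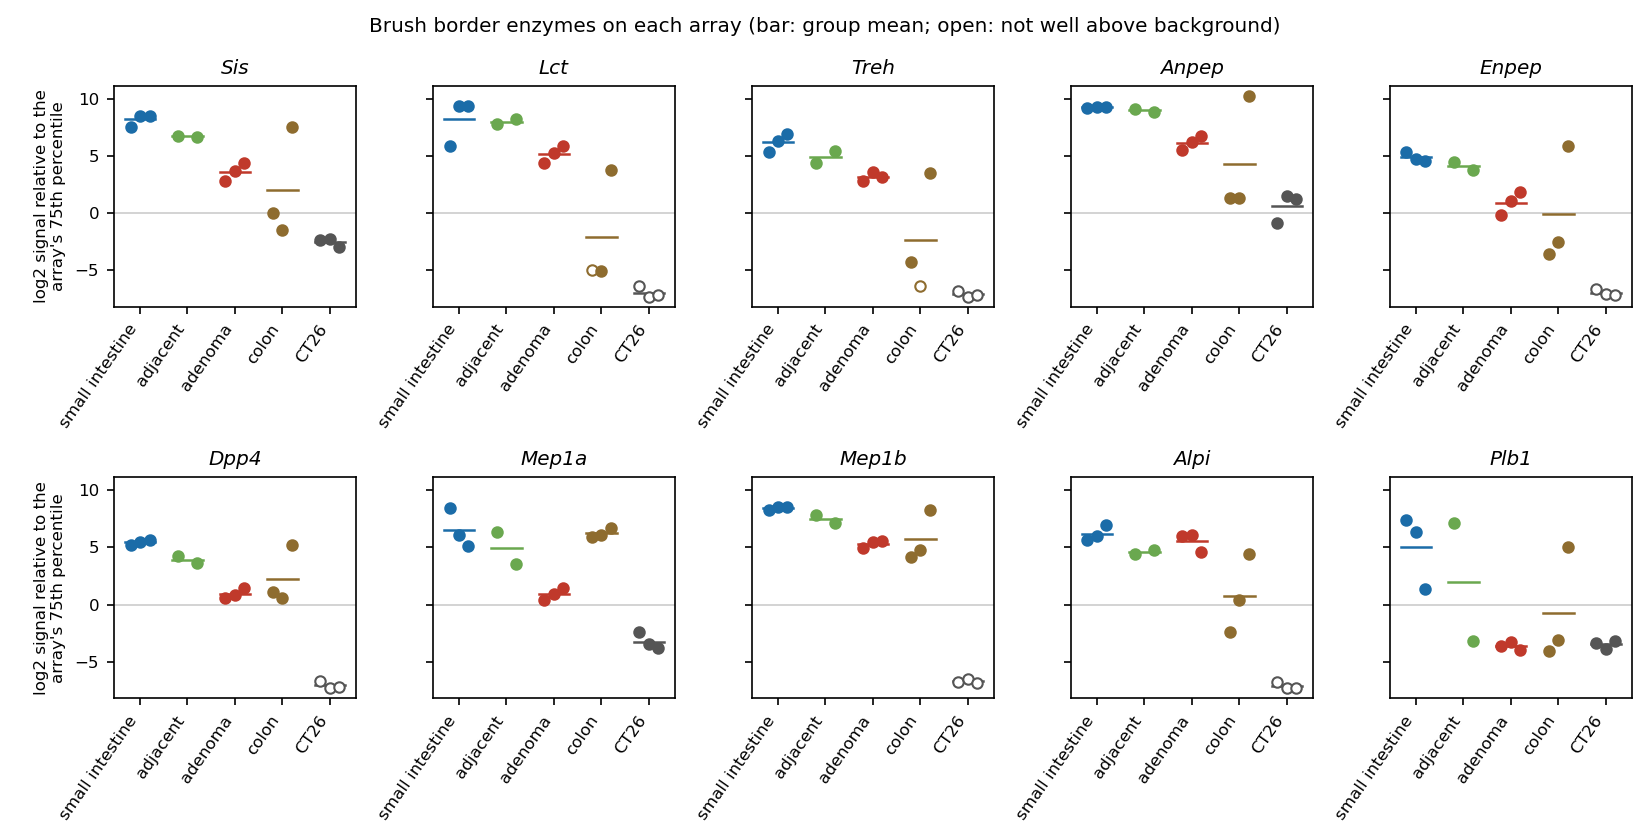
Log2 signal of each brush border enzyme, relative to the array's 75th percentile, on the 14 arrays in 5 groups. Each point is 1 array, bars are group means and open points are not well above background. In adenomas all genes but *Alpi* lie below every small intestine array, and colon replicate 3, the rightmost colon point, is the highest colon value for all 10 genes.

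Adenomas against healthy small intestine addressed what the tumors of this 1 mouse keep of the mature epithelium. In adenomas 8 of the 10 enzymes were underexpressed, by 8.04-fold (*Treh*) to 410-fold (*Plb1*), and the 2 not called were *Lct* and *Alpi*. Of all 22155 genes tested in this comparison 11.1% were underexpressed. The median log2FC was -0.15 over all genes tested and -3.54 over the 10 enzymes. For 9 enzymes every adenoma array was below every small intestine array, against 37.4% of the genes tested. Within slide 1 (2 arrays of each group) all 10 enzymes had a lower mean in adenomas, and within slide 2 (1 array of each) 9 did. As these are bulk samples, fewer enterocytes and less RNA per enterocyte cannot be told apart. Without each array in turn 7 to 9 enzymes were called, with 1706 to 3069 of all genes underexpressed. When all 5 groups shared a common estimate of the spread 3 enzymes were called, with 1760 of 22155 genes underexpressed. In that fit *Dpp4*, *Mep1a* and *Mep1b* were called.

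Sugars are split by *Sis* (sucrase-isomaltase), *Lct* (lactase) and *Treh* (trehalase). *Sis* measured 7.56, 8.54 and 8.52 in small intestine, 6.79 and 6.67 in adjacent tissue and 2.78, 3.66 and 4.35 in adenomas. The groups did not overlap, and *Sis* was underexpressed in adenomas 24.4-fold (log2FC -4.61, SE 0.45, limma adjusted p = 0.0003575). *Treh* measured 5.33, 6.34 and 6.90 in small intestine, 4.38 and 5.41 in adjacent tissue and 2.80, 3.58 and 3.17 in adenomas. Its adenoma values were the lowest of the 3 tissues, with a log2FC of -3.01 against small intestine (SE 0.41, limma adjusted p = 0.001345). *Lct* measured 5.92, 9.38 and 9.39 in small intestine, so that replicate 1 was well below the others and close to the adenomas, which measured 4.35, 5.23 and 5.87. Adjacent tissue measured 7.78 and 8.21, between these. The log2FC of *Lct* was -3.08 (95% confidence interval -5.31 to -0.85, limma adjusted p = 0.0303), which missed the threshold. Without small intestine replicate 1 it was -4.23 and was called (limma adjusted p = 0.000612).

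Peptides are trimmed by *Anpep* (aminopeptidase N), *Enpep* (glutamyl aminopeptidase) and *Dpp4* (dipeptidyl peptidase 4). *Anpep* measured 9.22, 9.27 and 9.30 in small intestine and 9.07 and 8.89 in adjacent tissue, which lay slightly lower. Adenomas measured 5.54, 6.21 and 6.78, a log2FC of -3.09 (SE 0.31, limma adjusted p = 0.0004002). The standard deviation (SD) of *Anpep* was 0.042 in small intestine and 0.62 between the adenoma pieces (n = 3 each). *Enpep* measured 5.36, 4.72 and 4.54 in small intestine, 4.46 and 3.77 in adjacent tissue and -0.16, 1.09 and 1.81 in adenomas. No values of adenoma and small intestine overlapped, and the log2FC was -3.96 (SE 0.49, limma adjusted p = 0.0009321). *Dpp4* measured 5.25, 5.47 and 5.68 in small intestine, 4.23 and 3.60 in adjacent tissue and 0.55, 0.83 and 1.43 in adenomas. It had the lowest adjusted p of the 10 enzymes, 9.054e-05 by limma, with a log2FC of -4.53 (SE 0.26).

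Proteins are cut by the meprins, metalloproteases built from the subunits encoded by *Mep1a* and *Mep1b*. *Mep1b* measured 8.25, 8.51 and 8.54 in small intestine, 7.81 and 7.16 in adjacent tissue and 4.93, 5.47 and 5.55 in adenomas. Arrays of each tissue lay close together, and the log2FC between adenomas and small intestine was -3.11 (SE 0.22, limma adjusted p = 0.000126). *Mep1a* spread more widely, with 8.45, 6.08 and 5.10 in small intestine, 6.34 and 3.57 in adjacent tissue and 0.41, 0.94 and 1.41 in adenomas. Its log2FC was -5.62 (SE 0.79, limma adjusted p = 0.001536), 49.3-fold lower in adenomas. Their values in colon are given below.

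*Alpi*, the intestinal alkaline phosphatase, was the enzyme that overlapped between adenomas and small intestine. It measured 5.66, 5.98 and 6.95 in small intestine, 4.46 and 4.74 in adjacent tissue and 6.03, 6.08 and 4.62 in adenomas. Adenoma replicates 1 and 2 lay within the range of small intestine and replicate 3 lay with the adjacent tissue. Its log2FC was -0.62 against small intestine (95% confidence interval -1.76 to 0.53, limma adjusted p = 0.31) and 0.98 against adjacent tissue (-0.19 to 2.14, limma adjusted p = 0.1875). A decrease of about the size of the next smallest change, that of *Treh*, lay outside the first interval. The duodenal alkaline phosphatase *Akp3* and enteropeptidase *Tmprss15*, the duodenal activator of trypsinogen, also split the adenomas. *Akp3* measured 0.88 and 0.51 on adenoma replicates 1 and 2 and -4.12 on replicate 3, and *Tmprss15* measured 0.09, 0.11 and -3.39. The iron reductase *Cybrd1*, also a gene of the proximal intestine, measured 4.01, 3.69 and 0.30 on the same arrays. Unlike *Alpi*, these genes lay lower in small intestine than on adenoma replicates 1 and 2. There *Akp3* measured -4.90 to -2.98, *Tmprss15* -7.25 to -6.215 and *Cybrd1* -1.43 to -0.79. *Tmprss15* also split the adjacent tissue, at -6.69 and 0.34.

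*Plb1*, the brush border phospholipase B, had the widest spread. Its brightest probe (chr5:32666670-32666729, mm9) measured 7.44, 6.32 and 1.36 in small intestine, 7.11 and -3.19 in adjacent tissue and -3.66, -3.25 and -4.00 in adenomas. The adenomas, adjacent replicate 2, colon replicates 1 and 2 and CT26 all lay between -4.06 and -3.11, and the other arrays lay from 1.36 upwards. Whether this narrow range is the floor of the probe was not tested, so the folds that rest on it are uncertain. The log2FC between adenomas and small intestine was -8.68 (SE 1.43, limma adjusted p = 0.002862), and was called with small intestine replicate 1 left out, at -7.48 (adjusted p = 0.004461), and with replicate 3 left out, at -10.52 (adjusted p = 0.0001165). The fold of *Plb1* thus moved between 178-fold and 1469-fold with a single small intestine array. The call was lost without small intestine replicate 2 or any one of the adenoma arrays (adjusted p of 0.01197 to 0.0136). A second probe was not well above background on any of the arrays that lay between -4.06 and -3.11 on the first. It was lower in adenomas by at least 36.2-fold (limma adjusted p = 0.004499), but was tested through small intestine alone and could only come out lower. On the third probe only small intestine replicate 1 was well above background.

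Adjacent tissue lay between small intestine and adenomas for 9 of the 10 enzymes, all but *Alpi*, in group means. The share of all genes in such a position was not computed, so this count does not set the enzymes apart from other genes. Set on a scale from 0 (small intestine) to 1 (adenoma), its median position over the 10 enzymes was 0.31, and it ranged from 0.076 (*Lct*) and 0.090 (*Anpep*) to 0.43 (*Treh*) among these 9. Both adjacent arrays were lower than every small intestine array for 6 enzymes, *Sis*, *Anpep*, *Enpep*, *Dpp4*, *Mep1b* and *Alpi*, against 31.0% of 21701 genes. No enzyme was called (limma; 0.0% of the genes were underexpressed and 2 genes overexpressed), while 4 of the 10 enzymes and 30.62% of the genes had an unadjusted p under 0.05. *Dpp4* came nearest, with a log2FC of -1.55 (95% confidence interval -2.23 to -0.86, limma adjusted p = 0.05423). The interval for *Anpep* was -0.77 to 0.21.

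Adenomas against the adjacent tissue of the same mouse addressed the step from non-tumor to tumor tissue. Here 3 of the 10 enzymes were underexpressed, all peptidases: *Dpp4* (log2FC -2.98, SE 0.33, limma adjusted p = 0.006172), *Anpep* (-2.81, SE 0.37, adjusted p = 0.008718) and *Mep1b* (-2.17, SE 0.29, adjusted p = 0.009107). Of 22260 genes 1.78% were underexpressed. For 9 enzymes, all but *Alpi*, every adenoma array lay below both adjacent arrays, against 28.7% of genes. *Sis* (-3.13, limma adjusted p = 0.01081) and *Lct* (-2.84, limma adjusted p = 0.01396) came next. These calls lay close to the threshold: none was made when the slide entered as a block, when every probe was tested, when all groups were fitted together, or without adjacent replicate 1 or any one adenoma array, and 4 were made without adjacent replicate 2. In that last fit *Mep1a* was called at -5.42 and *Plb1* at -10.75, while *Anpep* was not. Without adjacent replicate 1 instead, *Mep1a* stood at -2.65 and *Plb1* at -0.45, so that the value of *Plb1* rested on 1 adjacent array. Within slide 1 and within slide 2, 9 enzymes had a lower mean in adenomas, *Alpi* being the exception. Since both comparisons use the same adenoma arrays, their values are not independent.

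**Figure D2:**
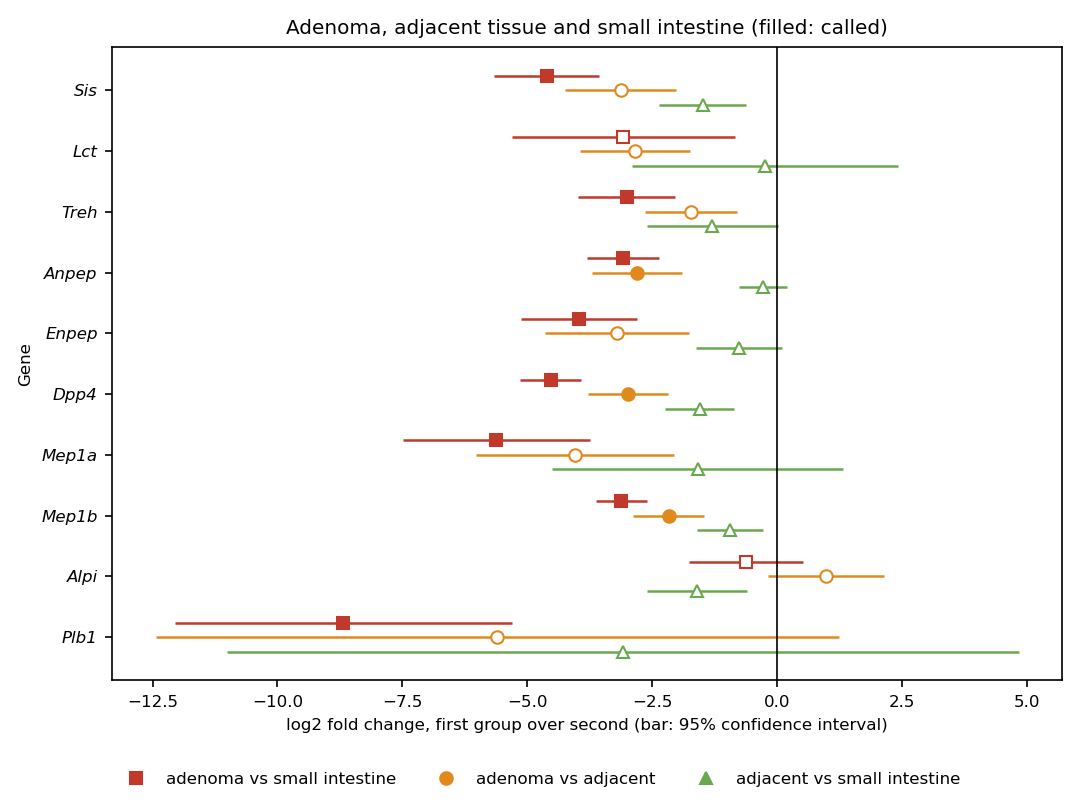
Log2 fold change of each enzyme with its 95% confidence interval for adenoma over small intestine, adenoma over adjacent tissue and adjacent tissue over small intestine. Filled symbols passed the thresholds. *Alpi* is the only enzyme with a positive value, 0.98 in adenoma over adjacent tissue, and the intervals of *Plb1* are the widest.

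Markers of position along the small intestine varied with some of these enzymes. *Fabp6* measured 9.95, 1.60 and -1.74 in small intestine, 8.12 and -0.83 in adjacent tissue and -1.76, -1.43 and -1.78 in adenomas. It was thus high on small intestine replicate 1 and adjacent replicate 1, the arrays on which *Plb1* and *Mep1a* were highest in their groups. The whole list of 5 distal markers had a summed signal of 6.38 to 10.34 in small intestine, 4.45 to 8.45 in adjacent tissue and 2.56 to 3.16 in adenomas, and 3 of the 5 (*Osr2*, *Slc51b*, *Slc51a*) were underexpressed in adenomas. Of 6 proximal markers none was called in adenomas against small intestine (limma; 4 of them, and 60.01% of all genes tested, had an unadjusted p under 0.05). Their summed signal was 5.59 to 9.66 in small intestine, 6.39 to 7.89 in adjacent tissue and 6.42 to 7.22 in adenomas. The apolipoprotein *Apoa4*, a proximal marker, measured 5.02, 8.74 and 9.42 in small intestine, with the low value on replicate 1 as for *Lct*. In adenomas *Apoa4* measured 5.42, 6.35 and 5.502. The transcription factor *Onecut2*, another proximal marker, measured -2.38, 1.41 and 2.93 in small intestine and 4.71, 5.14 and 4.73 in adenomas. *Cyp2b10*, also a proximal marker, went the other way, with 3.48, 6.37 and 6.74 in small intestine and 1.67, 2.39 and 2.58 in adenomas. Of the 6 proximal markers 3 had a negative log2FC in adenomas against small intestine. The part of intestinal position in the adenoma results was not tested. Without small intestine replicate 1, the array with the highest *Fabp6* of its group, the log2FC of *Mep1a* was -4.67 (limma adjusted p = 0.0003625), and without replicate 3 it was -6.34.

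**Figure D3:**
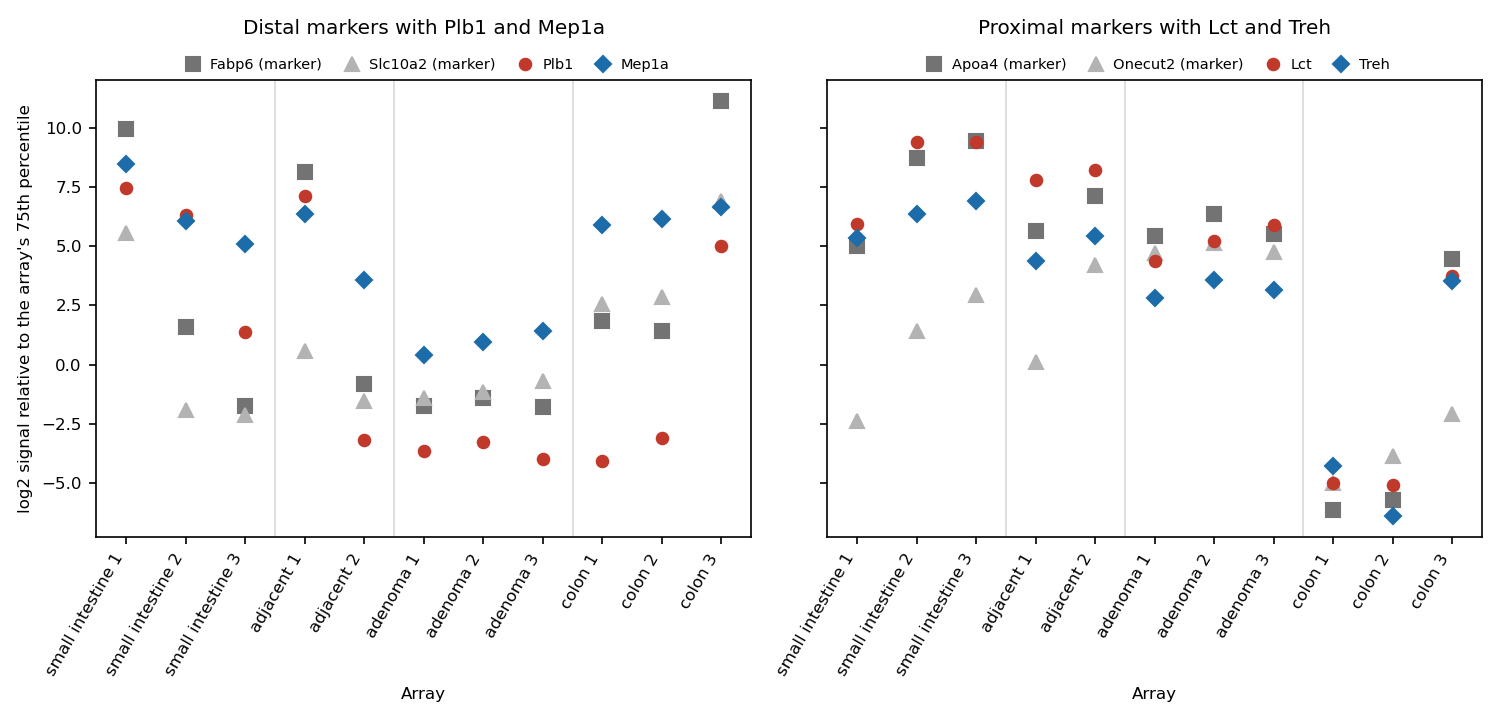
Log2 signal on the 11 tissue arrays of distal markers (*Fabp6*, *Slc10a2*) beside *Plb1* and *Mep1a*, and of proximal markers (*Apoa4*, *Onecut2*) beside *Lct* and *Treh*. Small intestine replicate 1, adjacent replicate 1 and colon replicate 3 have the highest *Fabp6*, at 9.95, 8.12 and 11.12.

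Other genes of the brush border moved with the 10 enzymes. Of 15 further enzymes of the brush border 13 were tested in adenomas against small intestine, and 10 were underexpressed and 1 overexpressed. The largest measured changes were those of the alkaline sphingomyelinase *Enpp7* (log2FC -8.83), the peptidase *Naaladl1* (-6.61) and the aminopeptidase P *Xpnpep2* (-6.04). *Enpp7* was well above background on 1 of the 3 adenoma arrays, so its value there is partly a background reading. *Tmprss15* was overexpressed, at least 11.1-fold, as it was not well above background on any small intestine array. It was thus tested through adenomas alone and could only come out higher. The median log2FC of the 13 enzymes tested was -3.52. All 12 genes of the microvillus scaffold were underexpressed, with a median of -2.50, led by the scaffold protein *Pdzk1* (-5.39), the actin bundlers *Pls1* (-3.35) and *Espn* (-3.23). The villin gene *Vil1* measured 8.63, 8.79 and 9.18 in small intestine and 6.17, 6.47 and 6.58 in adenomas. Against adjacent tissue 5 of the 13 enzymes tested (*Ace* and *Asah2* with the largest changes) and 2 of the 12 scaffold genes (*Pdzk1* and *Pls1*) were underexpressed.

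Peptidases of other compartments were measured for comparison. Of 9 cytosolic and lysosomal peptidases, 3 were underexpressed in adenomas, *Pepd* (log2FC -2.97), *Lap3* (-2.78) and *Xpnpep1* (-2.20), and the median was -0.48. These 3 act in the cytosol on short peptides and proline-containing peptides. *Dpp8* and *Dpp9*, cytosolic relatives of *Dpp4*, had log2FCs of -0.17 (limma adjusted p = 0.3846) and 0.02 (limma adjusted p = 0.9419).

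Of the factors whose motifs were searched, *Hnf4g* (log2FC -2.54), *Cdx1* (-1.75), *Cdx2* (-1.41) and *Hnf4a* (-1.40) were underexpressed in adenomas against small intestine. The GATA factors *Gata4* (-0.09), *Gata5* (-1.08) and *Gata6* (-0.58) were not called (limma adjusted p of 0.8958, 0.007613 and 0.07529, the second with a fold change under the threshold). In all, 8 of 14 intestinal transcription factors were underexpressed, with *Maf* (-3.08), *Klf4* (-3.06) and *Hnf4g* showing the largest changes, and none was overexpressed. *Maf* was also underexpressed against adjacent tissue (-2.21), the only one of the 14 called there.

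The epithelium itself was measured in all tissues. The summed signal of 8 epithelial markers was 11.11 to 11.40 in small intestine, 10.26 to 10.60 in adjacent tissue and 10.63 to 10.91 in adenomas. Between adenomas and small intestine *Krt20* (log2FC -1.82), a keratin of mature cells, and *Cldn7* (-1.38) were underexpressed, *Krt18* (1.29) was overexpressed and the other 5 were not called. *Epcam* differed by -0.88 (limma adjusted p = 0.01125) and *Cdh1* by -0.24 (limma adjusted p = 0.2839). Of 10 proliferation genes 8 were overexpressed in adenomas, *Plk1*, *Cdk1* and *Top2a* most, with a median log2FC of 1.91. Over all 22155 genes tested in this comparison, 2500 were overexpressed and 2464 underexpressed. Among other cell types, 3 of 5 Paneth cell, 3 of 5 goblet cell, 4 of 5 T cell and 1 of 6 smooth muscle markers were underexpressed, 3 of 5 fibroblast and 2 of 4 endothelial markers were overexpressed, and of 6 macrophage and neutrophil markers 3 were overexpressed and 1 underexpressed. Of 5 B cell markers 2 were tested and none was called (limma; 1 of them, and 60.01% of all genes tested, had an unadjusted p under 0.05). The summed signal of the T cell list was 6.23 to 7.38 in small intestine, 5.25 to 5.26 in adjacent tissue and 3.85 to 4.08 in adenomas, and that of the fibroblast list was 3.68 to 6.07, 5.13 to 5.81 and 6.45 to 6.68. The part of cell composition in the enzymes' values was not tested.

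**Figure D4:**
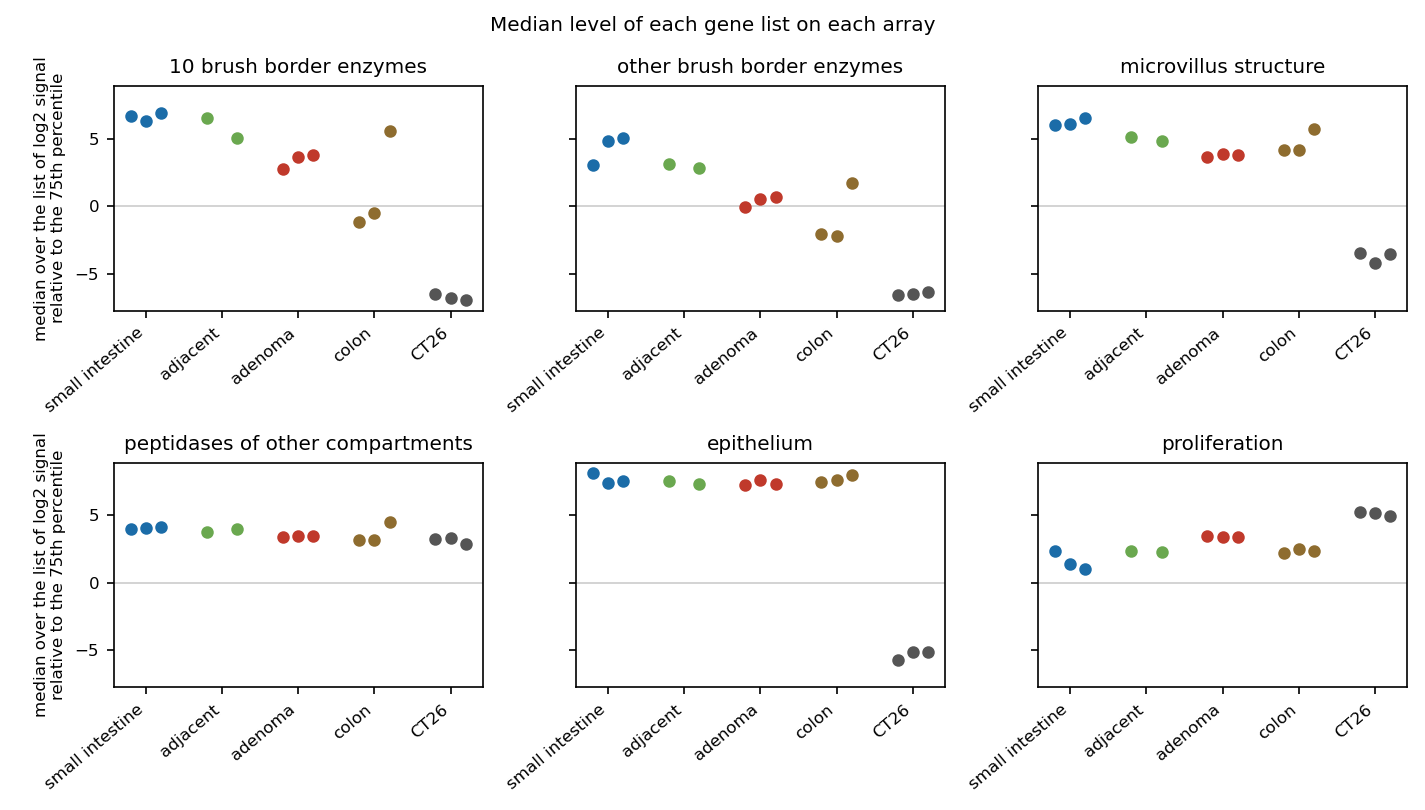
Median log2 signal of 6 gene lists on each of the 14 arrays, relative to the array's 75th percentile. The medians of the 10 brush border enzymes lie at 6.33 to 6.92 in small intestine and at 2.79 to 3.76 in adenomas, whereas those of the epithelial markers lie between 7.23 and 8.15 on all tissue arrays.

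Colon against small intestine addressed the difference between the large and the small bowel. With all 3 colon arrays no enzyme was called by limma (6 of the 10, and 23.86% of all genes, had an unadjusted p under 0.05), as 0.00483% of the genes were underexpressed and 1 gene was overexpressed. Without colon replicate 3, 8 of the 10 were underexpressed, against 3.9% of 22664 genes. *Lct* measured -5.01 (not well above background), -5.07 and 3.75 in colon, and its log2FC without replicate 3 was -13.27 (limma adjusted p = 0.001285). *Treh* measured -4.26, -6.38 (not well above background) and 3.52, and *Sis* -0.01, -1.47 and 7.51, with log2FCs of -11.51 and -8.95 without replicate 3. The fitted values of *Lct* and *Treh* rest on 1 colon array well above background and 1 that was not. On colon replicates 1 and 2 all 3 sugar-splitting enzymes lay below every adenoma.

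The peptidases were less uniform in colon. *Anpep* measured 1.34, 1.35 and 10.25, the last above all small intestine arrays, and *Enpep* -3.60, -2.57 and 5.87. Without replicate 3 their log2FCs were -7.92 (limma adjusted p = 8.292e-05) and -7.96 (limma adjusted p = 0.0003115). *Dpp4* measured 1.08, 0.56 and 5.19, and *Mep1b* 4.19, 4.76 and 8.28, with log2FCs of -4.65 and -3.96. *Mep1a* measured 5.91, 6.13 and 6.67, within the range of small intestine on every colon array. Its log2FC was -0.52 without replicate 3 (95% confidence interval -2.77 to 1.72, limma adjusted p = 0.6965) and -0.31 with it, the smallest of the 10 in size in both. *Alpi* measured -2.41, 0.38 and 4.41 and was called without replicate 3 (-7.21). *Plb1* measured -4.06, -3.11 and 5.02 and was not called (-8.63, limma adjusted p = 0.01894).

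Adenomas and colon were set side by side because both had low enzyme levels. Only *Mep1a* was called with all arrays, 39.9-fold lower in adenomas (log2FC -5.32, SE 0.34, limma adjusted p = 0.001336), against 1.62% of genes underexpressed. That call was lost without adenoma replicate 1 or 2 (adjusted p of 0.0125 and 0.01915). Without colon replicate 3 *Mep1a* remained underexpressed in adenomas (-5.10, against 6.68% of genes), and 6 enzymes, *Lct*, *Treh*, *Alpi*, *Anpep*, *Sis* and *Enpep*, were overexpressed relative to colon, against 5.02% of genes. Among the 4 measured on both remaining colon arrays the log2FCs were 6.59 (*Alpi*), 4.83 (*Anpep*), 4.34 (*Sis*) and 3.996 (*Enpep*). *Lct* and *Treh* were each well above background on 1 of these 2 colon arrays, and their fitted values, 10.19 and 8.50, rest partly on background readings. The difference was 0.12 for *Dpp4* (95% confidence interval -0.67 to 0.90) and -0.05 for *Plb1* (-0.94 to 0.83), and *Mep1b* differed by 0.85 (limma adjusted p = 0.07135). All values of *Plb1* in this fit lay in the narrow range of its probe given above, so its interval may show no more than a floor.

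**Figure D5:**
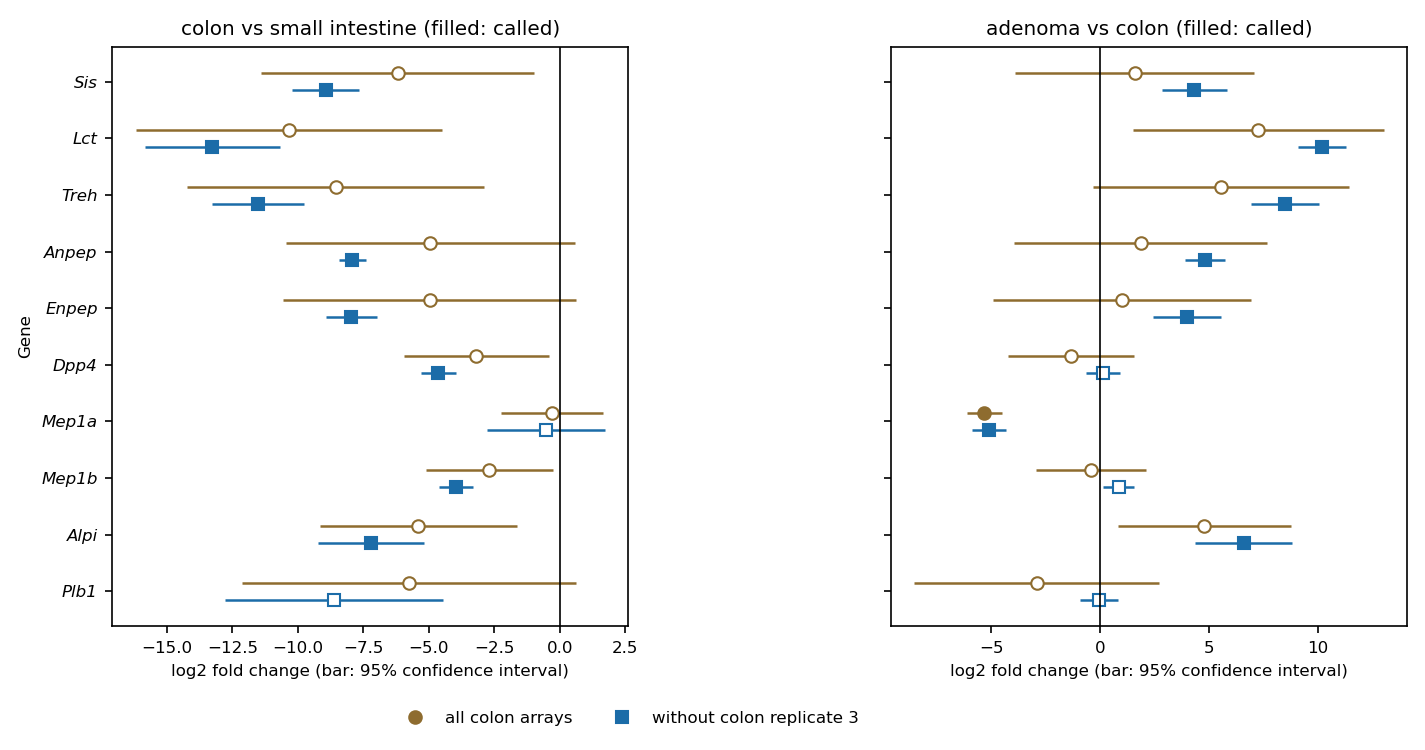
Log2 fold change of each enzyme with its 95% confidence interval for colon over small intestine and adenoma over colon, with all colon arrays and without colon replicate 3. Filled symbols passed the thresholds. Leaving out that array raises the number of calls from 0 to 8 and from 1 to 7.

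In CT26 cells all 10 enzymes were underexpressed relative to small intestine, against 22.9% of 22270 genes. Of these, 6 (*Lct*, *Treh*, *Enpep*, *Dpp4*, *Mep1b* and *Alpi*) were not well above background on any CT26 array, and were lower by at least 1137-fold (*Enpep*) to at least 13390-fold (*Mep1b*). Such a bound sets the mean of small intestine against the dimmest signal that counts as measured on the CT26 arrays. These 6 enzymes were tested through small intestine alone and could only come out lower, so their calls are no support by themselves. The other 4 were well above background on every CT26 array. *Anpep* measured -0.86, 1.46 and 1.22, 403-fold below small intestine (log2FC -8.65, SE 0.56, limma adjusted p = 3.446e-06). *Sis* measured -2.40, -2.27 and -2.98, *Mep1a* -2.38, -3.50 and -3.84 and *Plb1* -3.33, -3.91 and -3.23, and they were 1735-fold, 878.5-fold and 369.5-fold lower. The values of *Plb1* lay in the narrow range of its probe given above, which may be a floor, and its second probe was not well above background in CT26. These calls held without each array in turn, although the log2FC of *Plb1* (-8.53) then ran from -10.37 to -7.33, that of *Mep1a* (-9.78) from -10.50 to -8.83, each lowest without small intestine replicate 3 and highest without replicate 1, and that of *Anpep* was -7.92 without CT26 replicate 1.

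Relative to colon 8 enzymes were tested in CT26 and 4 were underexpressed, against 16.2% of genes, namely *Mep1a* (711-fold), *Mep1b* (at least 2075-fold), *Dpp4* (at least 188-fold) and *Alpi* (at least 67.2-fold). Without colon replicate 3 these were called too, at 612-fold, at least 862-fold, at least 68.5-fold and at least 19.2-fold. *Mep1b*, *Dpp4*, *Alpi* and *Enpep* were not well above background on any CT26 array. They were tested through colon alone and could only come out lower. The call of *Alpi* with all colon arrays was lost without any one CT26 array (limma adjusted p of 0.01277 to 0.01592). *Lct* and *Treh* were not well above background on all arrays of either group and were not tested. Without colon replicate 3 *Enpep* was also called (at least 4.57-fold), against 19.4% of genes underexpressed, and *Anpep* differed by -0.74 (95% confidence interval -2.33 to 0.86). In CT26 the epithelial markers *Epcam* and *Cdh1* were not well above background on any array, *Krt18* measured 5.77, 4.92 and 5.05, and the summed signal of the 8 markers was 5.19 to 5.82 against 10.52 to 11.43 in colon. All 8 were underexpressed relative to colon, and so were 9 of the 12 microvillus scaffold genes, with *Vil1* not well above background in CT26.

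Among themselves the enzymes differed in how closely they followed each other over the 14 arrays. *Lct* and *Treh* correlated most (Pearson's r = 0.99), followed by *Mep1b* and *Dpp4* (0.984) and *Sis* and *Enpep* (0.978), and *Alpi* and *Plb1* least (0.481). These are descriptions over arrays that share groups and scaling, and the group differences make up much of them. Within adenomas, replicate 1 had the lowest value of 8 of the 10 enzymes and replicate 3 the highest of 7. Within small intestine, replicate 1 was the lowest for 7 and the highest for the other 3, *Mep1a*, *Enpep* and *Plb1*. Adjacent replicate 1 was higher than replicate 2 for 7 enzymes, and lower for *Lct*, *Treh* and *Alpi*.

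Of 20002 other genes, the 5 whose profile was closest to the mean of the 10 enzymes included *Tm6sf2* (Pearson's r = 0.9938 over the 14 arrays), *Pla2g12b* (0.9932), *2010001E11Rik* (0.9919) and *Sowaha* (0.9916). *Tm6sf2* measured 5.88, 6.14 and 6.58 in small intestine, 5.22 and 5.03 in adjacent tissue, 3.65, 4.18 and 3.90 in adenomas and 1.71, 2.17 and 6.05 in colon. It also had its highest colon value on replicate 3.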

How the data were processed

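RNA of 14 samples in 5 groups was labelled with Cy3 and hybridized to 1 Agilent SurePrint G3 Mouse array each, on 2 slides. The deposited spot intensity values were extracted, background subtracted and spatially detrended by the authors with Feature Extraction 10.7.3.1 (design build mm9), without scaling between arrays. The deposited files also flag, per spot, a signal well above background, saturation and outliers (other columns, 0 or 1). The authors' normalized log2 table, with the same distribution on every array and its method not given in the sources used here, served as an alternative. Its fold changes and p-values of the authors' own comparisons were not used.

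From these files, outlier and control spots (of 62976 spots, 59305 were no controls) were left out, the log2 processed signal was taken relative to each array's 75th percentile and spots of a probe were averaged. Genes were named by accession for 26582 of 55681 probes (GRCm38.p6 gene table) and by the file's name for 29099, and each was read from its brightest probe. Each pair of groups was fitted on its own arrays with limma 3.58.1 (R 4.3.3), over the probes that all arrays of 1 or both groups measured well above background, with Benjamini-Hochberg adjustment over the probes tested. A probe measured in 1 group alone can only come out lower in the other, so its call is no support by itself. The thresholds (log2FC of 1.2, adjusted p of 0.01) are those of the study's methods, and 95% confidence intervals are from limma. The fit was tested on simulated data. A gene below background in a group was given a bound, the brighter mean against the dimmest signal counted as well above background or, where higher, the signal of the probe itself. A summed signal is the log2 of a list's summed unlogged signals.

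The 10 enzymes were named whatever their values, and from each of 17 further gene lists the counts and the 3 called genes with the largest change. Other genes, such as *Vil1*, the segment and colon markers, *Akp3*, *Dpp8*, *Dpp9* and the factors whose motifs were searched, were named after their values were seen. Some genes that this rule would name, and a motif, are not reported here. The enzymes and lists were chosen with earlier results of these data known, and neither they nor patterns shown before are independent support. Alternatives were normexp background correction (offset 50), quantile normalization, the authors' table, every probe tested, all 5 groups in 1 fit, slide or replicate number as a block, any probe of a gene, an adjusted p of 0.05 and leaving out each array.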

Additional observations from a re-analysis of the deposited data

How the results depend on the processing

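Among the values for single enzymes under other settings, 789 kept their direction and their side of the threshold, 46 lost a call, 25 gained one, 14 changed sign without having been called and 0 called values changed direction. In adenoma against small intestine 8 enzymes were called, 3 with all 5 groups in the fit (1760 of 22155 genes underexpressed). Without each array in turn 7 to 9 were called (1706 to 3069 genes underexpressed). In adenoma against adjacent tissue 3 were called, 6 with normexp background correction (518 of 22260 genes underexpressed) and 8 at an adjusted p of 0.05. The share of all genes called at 0.05 was not computed, so the last count does not set the enzymes apart. None was called with every probe tested, with all 5 groups in the fit or with the slide as a block. In these last settings 8, 3 and 9 enzymes had an unadjusted p under 0.05 (limma), against 24.33%, 19.47% and 35.89% of the genes. Without each array in turn 0 to 4 were called, 0 without adjacent replicate 1 or adenoma replicate 1, 2 or 3. With fewer arrays the residual degrees of freedom fall, and other causes of these changes were not tested. Over all genes 397 were underexpressed in that comparison, against 1 with every probe tested, 37 with all groups and 32 with the slide as a block. In colon against small intestine 0 enzymes were called, 2 with all 5 groups in the fit, and 0 to 8 without each array, 8 without colon replicate 3 (885 genes underexpressed, against 1). In adenoma against colon 1 was called and 0 to 7 without each array, 0 without adenoma replicate 1 or 2 and 7 without colon replicate 3. In CT26 against colon 4 were called (3 to 5 without each array), in CT26 against small intestine 10 (10 to 10; 9 with all 5 groups in the fit) and in adjacent tissue against small intestine 0 (0 to 0). A lone adjacent array, where the other was left out, is assumed to vary like the adenomas.

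Over all genes, those underexpressed in adenoma against small intestine numbered 2464, with 1567 from the authors' table, and quantile normalization moved the median log2FC of all genes there from -0.15 to -0.034. In adenoma against colon 356 genes were underexpressed, 11 with the slide as a block, and in colon against small intestine 1 and 519 with all groups in the fit.

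The replicate numbers were not taken as pairing the samples. Deviations of same-numbered samples correlated at 0.0212, 0.116 and -0.0946 in adenoma and small intestine, and at -0.00997 and -0.0356 in adenoma and adjacent tissue (20832 probes). They correlated at 0.291 and 0.141 in adjacent tissue and small intestine, at 0.181, 0.0123 and 0.238 in colon and small intestine, and from -0.322 to 0.0862 in the other comparisons; none with 3 pairs had every correlation above 0.1. With the replicate block 9 enzymes were called in adenoma against small intestine (2226 of 22155 genes underexpressed) and 0 in adenoma against adjacent tissue. In the latter 9 enzymes and 28.28% of the genes had an unadjusted p under 0.05 (limma). The adjacent replicates are titled Adj2 and Adj3, so their title numbers differ from their replicate numbers. Correlations by title number were not computed, and a pairing by these titles was thus not checked in that way. A block by the title numbers, chosen after seeing the data, also gave 0 in adenoma against adjacent tissue (8 enzymes and 27.74% of the genes with an unadjusted p under 0.05 by limma). The replicate block lowered the genes underexpressed in adenoma against adjacent tissue from 397 to 14 and in adenoma against colon from 356 to 8.

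On CT26 arrays 6 of the 10 enzymes were not well above background, so that their folds are bounds.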
